A study of Mus musculus with 12 samples.

Results

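The 8 genes Srebf1, Srebf2, Insig1, Insig2, Scap, Nr1h2, Nr1h3 and Mylip encode the sterol-sensing regulators of the cell, and they were chosen by name. On these liver arrays 7 of the 8, among 19938 genes in all, had a probe set of their own. Nr1h2 was not analysed here. The series asked how diet changes liver expression in wild-type mice and in mice without SIRT3, a mitochondrial deacetylase. It holds 12 Affymetrix arrays of RNA from whole livers of 129Sv mice, 1 array per sample and 3 per group. The 4 groups are wild type on standard diet, SIRT3 knockout on standard diet, wild type on high-fat diet and SIRT3 knockout on high-fat diet. All mice, controls included, were 12 weeks old and had been fasted for 24 h. The high-fat groups were weaned onto a Western diet with 42% fat. The labels do not describe how the knockout allele was made, the sex of the mice or whether each array is a separate animal, so p-values measure the spread between these samples, which may be technical.

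SREBP proteins are transcription factors made as precursors in the membrane of the endoplasmic reticulum. Scap, a sterol sensor, carries them to the Golgi for cleavage when sterols are low, and the Insig proteins hold Scap back when sterols are high. Srebf2 encodes SREBP2, which drives genes of cholesterol synthesis and uptake, and Srebf1 encodes SREBP1a and SREBP1c, the latter driving genes of fatty acid synthesis in liver. The LXR receptors, LXRα from Nr1h3 and LXRβ from Nr1h2, are activated by oxysterols and drive genes of sterol export, Srebf1 and Mylip. Mylip encodes IDOL, a ubiquitin ligase that marks the LDL receptor for degradation. Insig1 is itself a target of SREBP, while in liver Insig2 has a transcript that is high in fasting and lowered by insulin.

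The start regions of Srebf2 and Insig1 are shown because the expression of both fell on the high-fat diet and because both genes are known SREBP targets. Each is the RefSeq window of 250 bases before to 50 after a start site in GRCm38.p6, read 5′ to 3′ along the gene. Srebf2 lies at chr15:82147019-82147318 on the + strand and Insig1 at chr5:28071162-28071461 on the + strand. Capitals mark matches, on either strand, to the sterol element TCACNCCAC, its shorter form TCACNCCA, the E-box CACGTG, the CCAAT box CCAAT, the GC box GGGCGG and the nuclear receptor half-site AGGTCA.
Srebf2: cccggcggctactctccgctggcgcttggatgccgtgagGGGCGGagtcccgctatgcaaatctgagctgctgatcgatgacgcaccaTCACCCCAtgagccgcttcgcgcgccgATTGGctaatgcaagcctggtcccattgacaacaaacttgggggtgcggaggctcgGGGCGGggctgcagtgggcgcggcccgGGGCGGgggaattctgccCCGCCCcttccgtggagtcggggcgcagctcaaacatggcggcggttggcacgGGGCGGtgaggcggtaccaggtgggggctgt
Insig1: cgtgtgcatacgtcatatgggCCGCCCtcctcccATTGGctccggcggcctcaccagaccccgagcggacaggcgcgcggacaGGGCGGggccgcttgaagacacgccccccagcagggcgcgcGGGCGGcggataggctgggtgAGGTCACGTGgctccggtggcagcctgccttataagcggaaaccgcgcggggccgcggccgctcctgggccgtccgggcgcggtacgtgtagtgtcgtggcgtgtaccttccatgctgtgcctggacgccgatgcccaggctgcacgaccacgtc
Neither window held the full sterol element, which was present in 1.24% of 32851 windows of this length. The Srebf2 window held the shorter form, present in 4.36% of windows and searched only after the windows had been read, with its first base at -162 from the start. It also held 1 CCAAT box, present in 37.4% of windows, and 5 GC boxes, present in 35.7%. The Insig1 window held 1 CCAAT box, 3 GC boxes, an E-box (7.15% of windows) and a half-site (16.3%) that overlaps the E-box. These matches are descriptions of letters, not of binding.

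The labelled tissue was checked against markers. The 7 of 8 hepatocyte markers that were measured had a mean log2 level of 13.3 to 13.5 on every array. The knockout minus wild-type difference of Sirt3 was -0.14 (SE 0.108) on the standard diet and -0.42 (SE 0.108) on the high-fat diet, and passed the test on neither. The probe positions relative to the targeted part are not known here, so Sirt3 checks no label. The 10 Kupffer cell and macrophage markers averaged 8.63 on wild-type high-fat replicate 3 and 8.01 to 8.24 on the other 11 arrays. The 4 skeletal muscle markers averaged 8.68 on knockout standard-diet replicate 2 and 6.79 to 7.14 elsewhere. Marker means also moved with the diet. The 7 hepatocyte markers averaged 13.42 to 13.55 on the standard diet and 13.30 to 13.41 on the high-fat diet in the knockout. In the wild type they averaged 13.40 to 13.53 and 13.30 to 13.43, where the diets overlapped. Of the 7, 1 was higher on the high-fat diet in the wild type and 0 in the knockout. None was called in either genotype, and 1 was called lower in the average over genotypes. Some other marker means were higher on the high-fat diet. The 6 endothelial markers averaged 8.46 to 8.53 on the standard-diet arrays and 8.54 to 8.69 on the high-fat arrays, with 1 of 6 called higher in each genotype. The 5 lymphocyte and NK cell markers measured averaged 5.01 to 5.07 on the standard diet and 5.33 to 5.59 on the high-fat diet in the wild type (3 of 5 called higher). In the knockout they averaged 5.12 to 5.25 and 5.20 to 5.47, where the diets overlapped and none was called. The 4 neutrophil markers averaged 5.37 to 5.58 and 5.67 to 5.81 on these diets in the wild type (1 of 4 called higher) and overlapped in the knockout (1 of 4 called higher). The 7 stellate cell and fibroblast markers averaged 7.81 to 7.87 and 7.94 to 8.11 in the wild type and overlapped in the knockout, with none called in either. Their part in the diet differences given here was not tested. In bulk tissue, fewer cells of a type and less RNA per cell cannot be told apart.

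Values are RMA log2 levels and differences are on the same scale, with the SE from a limma fit of all 12 arrays. Called means an adjusted p (Benjamini-Hochberg, all genes) below 0.05. The deposited values also bear on how the diets can be compared. A total of 335 probe sets lacked a value on the standard-diet arrays only. Pairs of arrays shared 11 to 31 exactly identical values within the standard diet, 2 to 15 within the high-fat diet and 0 to 1 across diets. The diets therefore appear to have been normalized in separate runs, and diet and run cannot be told apart for any gene.

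On the high-fat diet Srebf1 rose and Srebf2 and Insig1 fell in both genotypes, and in the knockout Insig2 fell as well. Srebf1 (chromosome 11, 60199084 to 60224186, GRCm38.p6) was 7.98, 7.94 and 8.09 on the wild-type standard-diet arrays (replicates 1, 2 and 3) and 8.65, 7.99 and 8.20 on the knockout standard-diet arrays. On the high-fat diet it was 9.35, 9.20 and 9.27 in the wild type and 9.26, 9.60 and 9.51 in the knockout. Every high-fat array thus lay above every standard-diet array, and the genotypes overlapped within each diet. The diet difference was 1.27 (SE 0.14, 2.41-fold, limma adjusted p = 0.000274) in the wild type and 1.18 (SE 0.14, 2.27-fold, adjusted p = 0.0006086) in the knockout.

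Srebf2 (chromosome 15, 82147269 to 82205379) went the other way. It was 8.77, 8.53 and 8.74 on the wild-type standard-diet arrays and 8.94, 8.69 and 8.85 on the knockout standard-diet arrays. The high-fat values were 8.01, 8.22 and 8.20 in the wild type and 8.11, 8.24 and 8.18 in the knockout. All 6 high-fat arrays lay below all 6 standard-diet arrays. It fell by 0.54 in the wild type (difference -0.54, SE 0.0979, adjusted p = 0.006936) and by 0.65 in the knockout (difference -0.65, SE 0.0979, adjusted p = 0.002937).

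Insig1 (chromosome 5, 28071412 to 28078662), the sterol-regulated anchor of Scap, was 10.74, 9.96 and 10.51 on the wild-type standard-diet arrays and 10.71, 10.57 and 10.91 on the knockout standard-diet arrays. High-fat values were 9.21, 9.68 and 9.55 in the wild type and 9.49, 9.99 and 9.82 in the knockout. Within each genotype the diets did not overlap, although wild-type standard-diet replicate 2 lay just below the highest high-fat array of the knockout. It fell by 0.93 in the wild type (difference -0.93, SE 0.182, 1.90-fold, adjusted p = 0.01027) and by 0.96 in the knockout (difference -0.96, SE 0.182, 1.94-fold, adjusted p = 0.009313). Without wild-type high-fat replicate 1 the wild-type adjusted p was 0.05649, so that call was lost.

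Insig2 (chromosome 1, 121304353 to 121332662) was nearly the same on all standard-diet arrays, at 12.40, 12.40 and 12.37 in the wild type and 12.40, 12.48 and 12.45 in the knockout. With high-fat feeding the wild type split into 12.26, 12.24 and, on replicate 3, 11.33, while the knockout was 11.69, 11.57 and 11.69. Wild-type replicate 3 was thus the lowest of all 12 arrays, below the knockout. The difference was -0.45 in the wild type (SE 0.174, adjusted p = 0.1431) and -0.79 in the knockout (SE 0.174, adjusted p = 0.01875), and the difference between these did not pass the test (interaction -0.35, SE 0.246, adjusted p = 0.9452). The wild-type value was -0.14 (adjusted p = 0.28) without replicate 3. The knockout call was lost in 3 of 12 omissions of 1 array, with the largest adjusted p of 0.07523 without knockout high-fat replicate 2. That call was also lost when all probe sets were fitted (limma adjusted p = 0.05692).

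**Figure D1:**
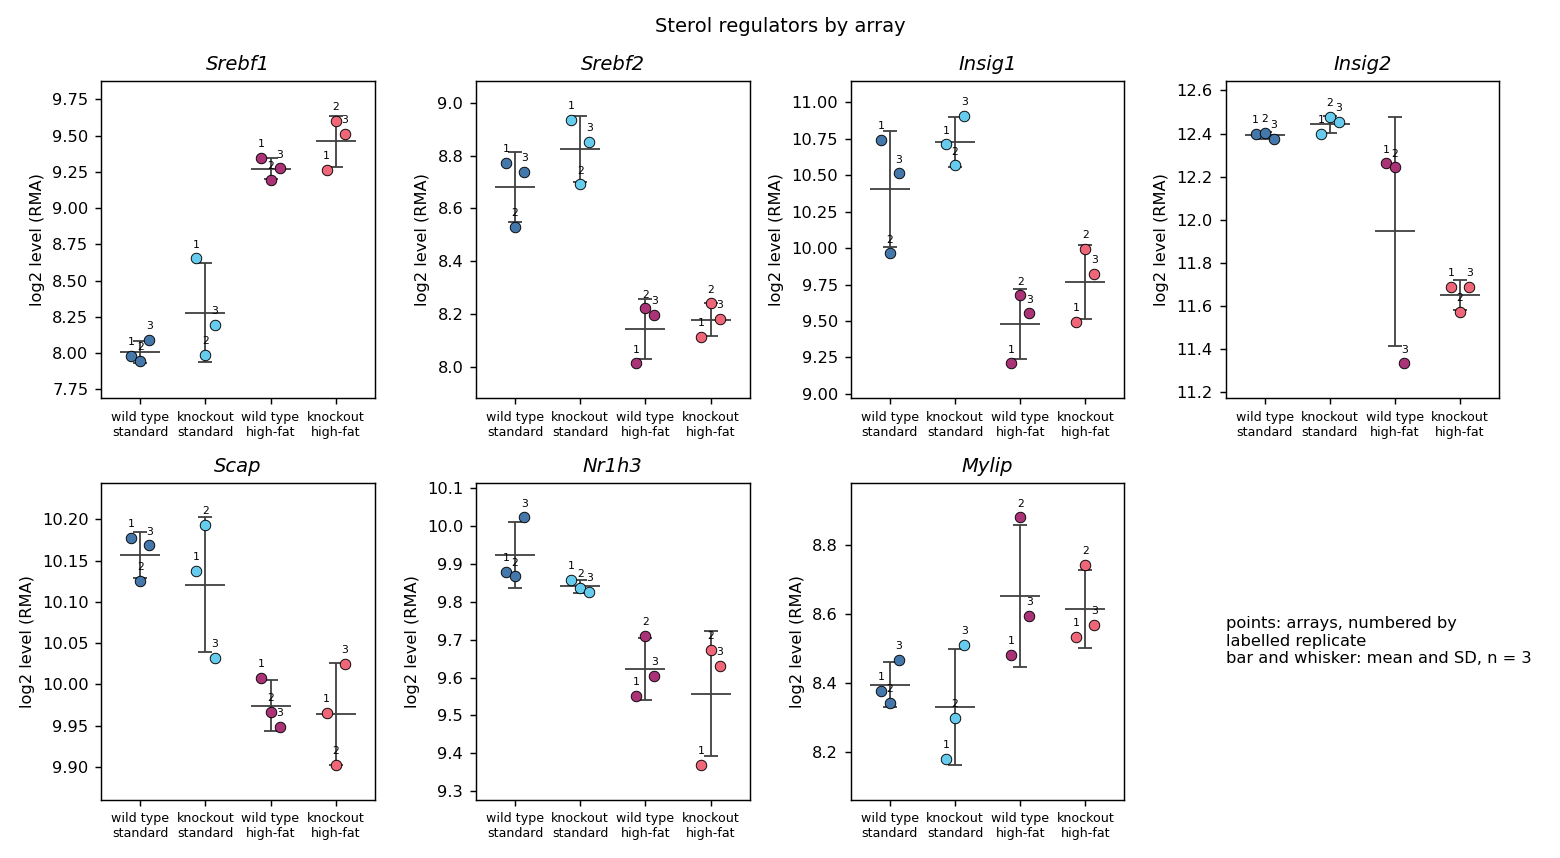
Log2 RMA level (y axis) of the 7 regulators on each array (points, numbered by labelled replicate) in the 4 groups of genotype and diet (x axis). Lines and whiskers are the mean and SD of 3 arrays. Srebf1 is higher on every high-fat array, Srebf2 is lower on every high-fat array, and Insig2 of wild-type high-fat replicate 3 lies at 11.33.

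Scap (chromosome 9, 110333288 to 110384949), the sterol sensor, moved little. It ranged from 10.03 to 10.19 on the standard-diet arrays and from 9.90 to 10.03 on the high-fat arrays, with a narrow gap that this rounding hides. The diet difference was -0.18 in the wild type (adjusted p = 0.1592) and -0.16 in the knockout (adjusted p = 0.2378). Nr1h3 (chromosome 2, 91184061 to 91202829), the LXRα receptor, was 9.83 to 10.02 on the standard diet and 9.37 to 9.71 on the high-fat diet, so the diets did not overlap. Its differences were -0.30 in the wild type (adjusted p = 0.06601) and -0.28 in the knockout (adjusted p = 0.0881). Mylip (chromosome 13, 45389742 to 45411940) was 8.18 to 8.51 on the standard diet and 8.48 to 8.88 on the high-fat diet. Its differences were 0.26 (adjusted p = 0.1964) and 0.28 (adjusted p = 0.1639) in the wild type and knockout.

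Ordered by group mean, both high-fat groups of Srebf1 and Mylip stood above both standard-diet groups, and the reverse held for Srebf2, Insig1, Insig2, Scap and Nr1h3. Neighbours in these orders overlapped within a diet, except wild type and knockout on the standard diet for Nr1h3. Neighbours across the diets did not overlap, except the wild-type standard-diet and knockout high-fat groups for Insig1.

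In the wild type, 3 of the 7 regulators passed the test for diet, where 5.99% of all genes did, 4.3% higher and 1.69% lower. The groups did not overlap for any of the 7, as for 30.3% of all genes. In the knockout 4 of 7 passed, where 5.11% of genes did, 2.45% higher and 2.66% lower, and again none of the 7 overlapped, as for 23.8% of genes. Averaged over genotypes all 7 passed, where 18% of genes did, 10.3% higher and 7.69% lower. In that average Scap fell by 0.17 (difference -0.17, adjusted p = 0.03753), Nr1h3 fell by 0.29 (difference -0.29, adjusted p = 0.007146) and Mylip rose by 0.27 (adjusted p = 0.03207). Of the 7, 5 had no overlap between all 6 arrays of each diet, as 8.64% of genes did. The call was kept in 3 of 12 omissions of 1 array for Scap and in 6 of 12 for Mylip.

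The share of calls that were higher among all genes depended on the scaling. It was 71.9% in the wild type as deposited, 56.5% after quantile normalization and 42.1% after median centring, and in the average 57.2%, 49.1% and 43.2%. The 7 regulators kept the same direction for diet under both scalings, but 6 rather than 7 were called in the average under each: Scap lost its call after quantile normalization (adjusted p = 0.1011) and Mylip after median centring (adjusted p = 0.07666). An added variance for an offset between the runs left none of the 7 called, with an adjusted p for Srebf1 of 0.2554 in the wild type, 0.2887 in the knockout and 0.123 in the average.

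No regulator passed the test for genotype. On the standard diet 0 of 7 regulators passed the test, where 0.00502% of genes did, although 1939 genes had an unadjusted p under 0.05. The largest differences of the knockout were 0.32 for Insig1 (SE 0.182, 95% interval -0.07 to 0.71, adjusted p = 0.5565) and 0.27 for Srebf1 (SE 0.14, 95% interval -0.03 to 0.57, adjusted p = 0.5384). Without knockout standard-diet replicate 1 the Srebf1 difference was 0.0853. The groups did not overlap for Nr1h3 alone (difference -0.08), as they did not for 14.4% of genes.

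On the high-fat diet 0 of 7 passed, where 0% of genes did and 571 had an unadjusted p under 0.05, and all 7 overlapped, while 6.68% of genes did not. Insig2 differed by -0.30 (SE 0.174, 95% interval -0.67 to 0.08, adjusted p = 0.9996), Insig1 by 0.29 (SE 0.182, adjusted p = 0.9996) and Srebf1 by 0.19 (SE 0.14, adjusted p = 0.9996). Without wild-type replicate 3 the Insig2 difference was larger in size, at -0.60, and was called (adjusted p = 0.02187), in 1 of 12 omissions of 1 array. This array was singled out after its Insig2 value had been seen, so the call adds no support. That array also had the highest Kupffer cell and macrophage mean, and the part of this in the Insig2 value was not tested. Averaged over diets, 0 of 7 and 0% of genes passed, while 1323 genes had an unadjusted p below 0.05. The averaged differences were 0.31 for Insig1 (SE 0.129, adjusted p = 0.7395) and 0.23 for Srebf1 (SE 0.0988, adjusted p = 0.7395). The interaction gave 0 of 7 and 0% of genes, while 944 had one below 0.05.

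**Figure D2:**
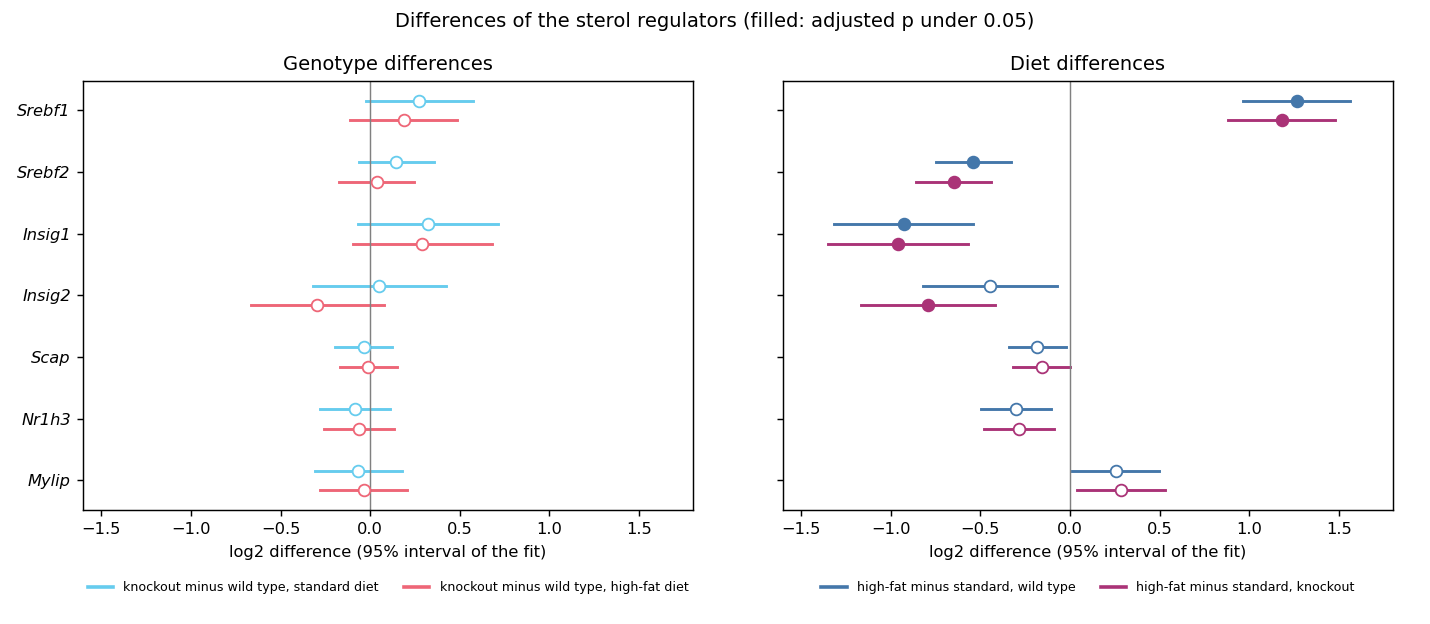
Log2 differences (x axis) of each regulator (y axis) with the 95% interval of the limma fit, for genotype within each diet (left) and for diet within each genotype (right). Filled points have an adjusted p under 0.05. Only diet differences are filled, and Srebf1 lies to the right while Srebf2 and Insig1 lie to the left in both genotypes.

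Srebf1 and Srebf2 were then set against each other on each array, which removes an array-wide offset but not one of a single probe set. With the wild-type standard-diet mean set to 0, Srebf1 minus Srebf2 ranged from -0.12 to 0.09 in standard-diet wild-type arrays and from -0.03 to 0.39 in standard-diet knockout arrays. High-fat arrays ranged from 1.65 to 2.01 in the wild type and from 1.82 to 2.04 in the knockout, with no overlap between diets. The diet difference was 1.82 (1.81 in the wild type, 1.83 in the knockout). The exact two-sided permutation p was 0.005 over 400 assignments, the smallest they can give, and 0.02 adjusted over 4 such tests. Every high-fat array was already higher in Srebf1 and lower in Srebf2, so this p was fixed in advance and adds no support. By genotype the difference was 0.14 (exact p = 0.17, adjusted 0.2).

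Insig1 minus Insig2 ranged, on the standard diet, from -0.45 to 0.33 in the wild type and from 0.08 to 0.44 in the knockout. In high-fat arrays it ranged from -1.07 to 0.20 in the wild type and from -0.21 to 0.41 in the knockout, so that all 4 groups overlapped. The diet difference was -0.32 (exact permutation p = 0.2, adjusted 0.2) and the genotype difference 0.43 (exact p = 0.11, adjusted 0.2). Without wild-type high-fat replicate 3 the genotype difference was 0.60 (exact p = 0.035, unadjusted). That array was singled out after its Insig2 value had been seen, so this p adds no support.

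**Figure D3:**
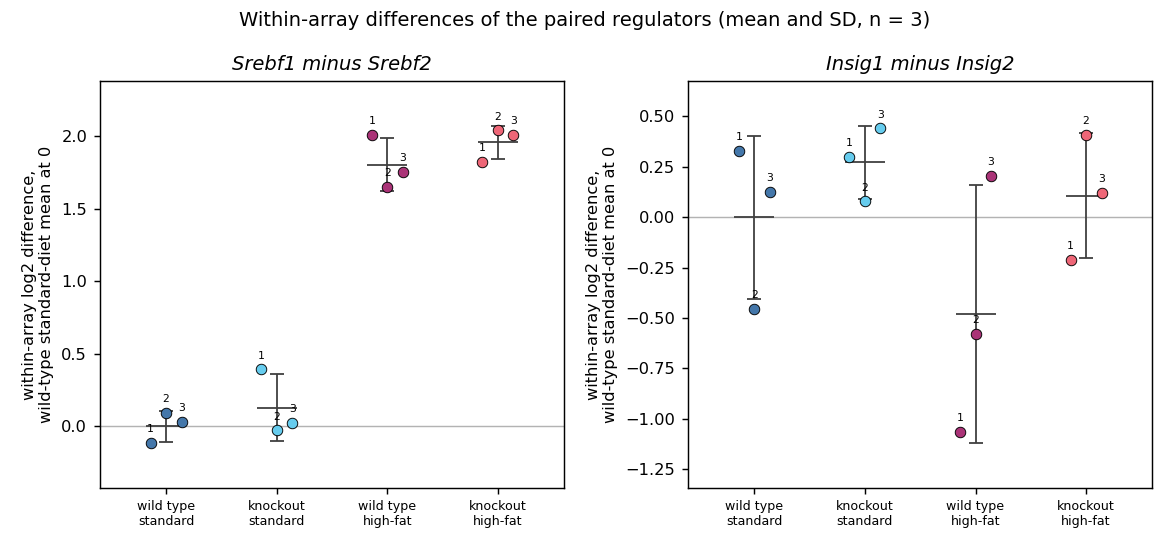
Within-array log2 difference of Srebf1 minus Srebf2 (left) and Insig1 minus Insig2 (right) on the y axis, with the wild-type standard-diet mean at 0, by group (x axis). Points are arrays and lines and whiskers the mean and SD of 3. The left panel is near 0 on the standard diet and between 1.65 and 2.04 on the high-fat diet, and the right panel overlaps throughout.

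The targets of SREBP2 and of LXR moved with the diet in opposite directions, and those of SREBP1c were mixed. The lists and their names were drawn up with earlier results of these data known. In counts and shares of these lists and of all genes, rose and fell mean called higher and called lower. Of 18 measured genes of cholesterol synthesis and sterol handling driven by SREBP2, 11 fell in the wild type and 14 in the knockout, where 1.69% and 2.66% of all genes fell. None rose, and the median difference was -0.75 and -0.92 (0.04 and -0.01 over all genes). Fdps, which makes farnesyl diphosphate, fell by 1.56 in the wild type (difference -1.56, adjusted p = 0.0002011) and by 1.77 in the knockout (difference -1.77, adjusted p = 5.992e-05). Tm7sf2, a sterol reductase, also fell (differences -1.20 and -1.49), as did Dhcr7, which completes cholesterol (-0.95 and -1.07). Without wild-type standard-diet replicate 1, or without wild-type high-fat replicate 1, the wild-type count was 8. With the variance for an offset between the runs, the counts were 0 and 1.

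Of 14 measured LXR targets, 9 rose in the wild type and 6 in the knockout, where 4.3% and 2.45% of all genes rose. None fell, and the medians were 0.50 and 0.32. Lpl, lipoprotein lipase, rose by 1.98 (adjusted p = 0.0001879) and 1.61 (adjusted p = 0.0009242). Abcg5, which exports sterols into bile, rose by 0.92 and 1.00, and Abca1, which loads cholesterol onto HDL, by 0.57 and 0.64. The wild-type count was 5 without wild-type standard-diet replicate 1 or 2 or wild-type high-fat replicate 1, 5 after median centring and 7 without the pair of arrays on which a regulator stood apart (replicate 1 of the standard-diet knockout, highest of its group in Srebf1, and replicate 3 of the high-fat wild type). With the variance for an offset between the runs, the counts were 2 and 0.

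The SREBP1c targets were split in direction, while Srebf1 rose. Of 16 measured, 1 was called higher and 2 lower in the wild type, and 2 higher and 3 lower in the knockout. The medians were -0.08 and -0.12. Over all genes 4.3% rose and 1.69% fell in the wild type, and 2.45% rose and 2.66% fell in the knockout. Scd1, the desaturase that makes monounsaturated fat and that is also an LXR target, rose by 3.38 (adjusted p = 2.071e-06) and 1.85 (adjusted p = 0.0006086). Fads1, a desaturase of polyunsaturated fat, fell in both genotypes (differences -0.89 and -0.70), as did Acacb, an acetyl-CoA carboxylase (-0.88 and -0.73). Scd1 was also the only gene of these 3 target lists called between genotypes on the standard diet, where it rose by 1.71 (adjusted p = 0.02607), and it was not called there without that pair of arrays.

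In the other lists, apart from the clock genes, few genes passed the test for diet. Of 22 genes that carry, cleave or degrade SREBP, Scap and Insig, 1 was called higher in each genotype and none was called lower. That share was near that of all genes called higher (4.3% and 2.45%). The median differences were -0.03 in the wild type and -0.02 in the knockout. The genes called were Rnf145, at 0.39 in the wild type (adjusted p = 0.03575), and Erlin1, at 0.44 in the knockout (adjusted p = 0.04832). Rnf145 is a ubiquitin ligase that is also among the LXR targets, and Erlin1 is an endoplasmic reticulum protein. Of 14 LXR partners and coregulators, 1 was called higher in the wild type, again near the share of all genes (Ppargc1b, 0.52, adjusted p = 0.0273), and none in the knockout, with medians of 0.03 and 0.04. In both lists the wild-type call was lost without wild-type standard-diet replicate 1 or 2 or wild-type high-fat replicate 1 or 3, and for the SREBP machinery also without wild-type standard-diet replicate 3, and its knockout list held a call in 1 of 12 omissions of 1 array, that of knockout standard-diet replicate 3.

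Of 9 genes of oxysterol synthesis and removal, 1 was called lower in each genotype, where 1.69% and 2.66% of all genes were. None was called higher, although 6 of the 9 differences in the wild type and 7 in the knockout were above 0. The medians were 0.06 and 0.08. The gene called lower was Cyp39a1, an oxysterol hydroxylase (differences -1.65 and -1.56), larger in size than the change of any regulator. Of the 6 IDOL substrates and partners measured, Vldlr, which IDOL also degrades, rose by 0.61 in the wild type (adjusted p = 0.04859). Over all genes 4.3% rose there. None of the 6 passed in the knockout. Of 10 genes of sterol transport and storage, 1 was called lower in each genotype, beside the same 1.69% and 2.66% of all genes. None was called higher. The gene called lower was Stard4, a sterol carrier that is also among the SREBP2 targets (differences -0.67 and -0.77). The Vldlr list had no wild-type call without any 1 of the 6 wild-type arrays or without knockout standard-diet or high-fat replicate 3, and the Stard4 list had none in the wild type without wild-type standard-diet or high-fat replicate 1.

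Of 10 fasting and insulin responsive genes, none passed in the wild type (median -0.28), where 5.99% of all genes did. Pdk4 and Igfbp1, both raised by fasting, were called lower in the knockout (differences -1.58 and -1.51, list median -0.11), as 2.66% of all genes were. In the wild type they differed by -0.96 (limma adjusted p = 0.1037) and -1.02 (adjusted p = 0.1227). The Pdk4 interaction did not pass the test (-0.62, adjusted p = 0.9452). Of 17 clock genes, 5 were called higher and 1 lower in the wild type, and 7 higher and 1 lower in the knockout. The medians were 0.54 and 0.49. Over all genes 4.3% rose and 1.69% fell in the wild type, and 2.45% rose and 2.66% fell in the knockout. Bhlhe41, a repressor of the clock, rose by 1.33 and 1.27, and Dbp, an output factor of the clock, by 1.68 and 1.79. Arntl, which encodes BMAL1, fell in both genotypes (differences -1.04 and -1.22). The count called higher was 3 in the wild type without wild-type standard-diet replicate 2, and 3 in the knockout without knockout high-fat replicate 2 or 3. In the knockout no fasting or insulin responsive gene was called without knockout standard-diet replicate 1 or knockout high-fat replicate 2, and 1 was called without knockout standard-diet replicate 2 or knockout high-fat replicate 1.

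**Figure D4:**
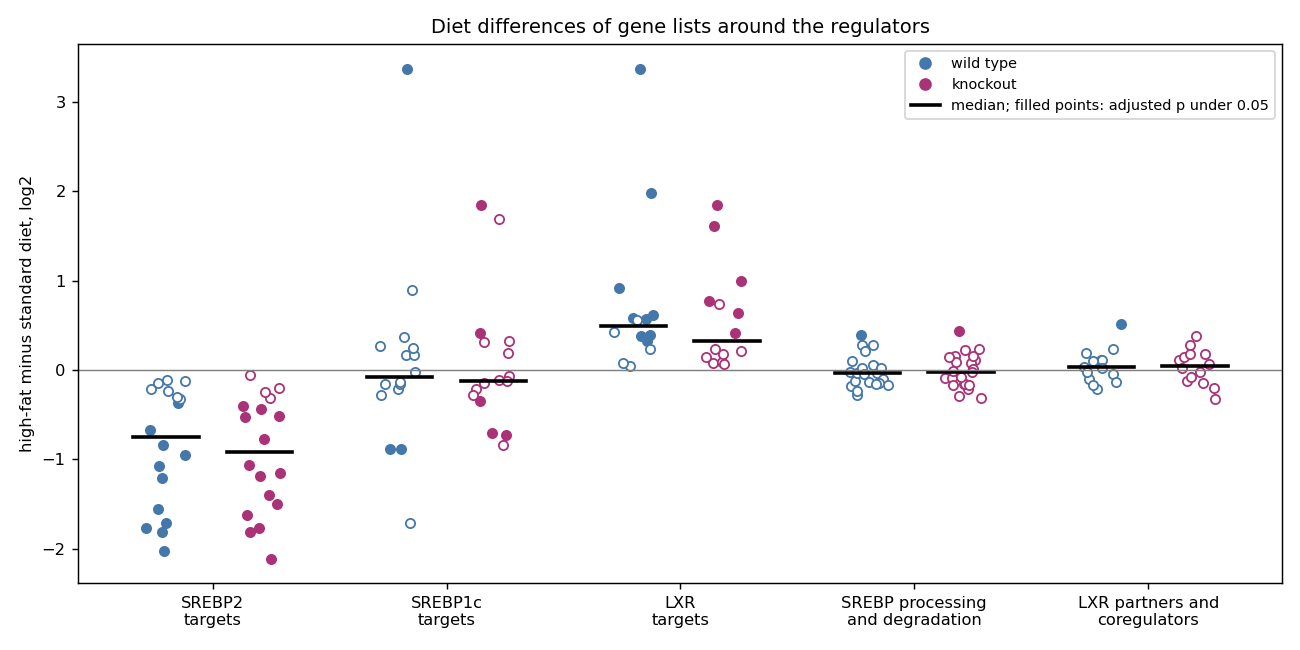
High-fat minus standard diet log2 difference (y axis) of each gene of 5 lists (x axis), in wild type and knockout. Black lines are medians and filled points have an adjusted p under 0.05. SREBP2 targets all lie below 0, LXR targets all above 0, and the other lists lie on both sides.

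The genes most like each regulator were ranked by Pearson correlation over 12 arrays, each centred on the mean of its diet, among 9534 genes, as a description with no test. For Srebf2 the closest was Insig1 (r = 0.86), followed by Syt3 (0.86) and Pcp4l1 (0.85), while Srebf1 and Srebf2 correlated at 0.66. For Insig1 the closest were Camk2n1 (0.92), Ak3 (0.89), Kcnk5 (0.88) and Nr1i3 (0.86), ahead of Srebf2. For Srebf1 the closest were Acss3 (0.94), Anxa6 (0.93), Cyp2a22 (0.93) and Ildr2 (0.93). For Insig2 they were Ppfibp1 (0.96), Rfxap (0.95) and Slc19a2 (0.95), and Insig1 and Insig2 correlated at -0.26. All of these correlations share the same 12 arrays, and wild-type high-fat replicate 3 is among them. In its group the SD was 0.26 for Ppfibp1, 0.15 for Rfxap and 0.25 for Slc19a2. In the other groups it was at most 0.043, 0.027 and 0.055. For Acss3, Anxa6, Cyp2a22 and Ildr2 the SD was largest in the standard-diet knockout, at 0.31, 0.18, 1.04 and 0.30. These correlations can thus rest largely on 1 group, and the part of single arrays in them was not tested.

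Within Srebf2 lies the hairpin of miR-33 (chr15:82198122-82198190, + strand), a microRNA known to repress Abca1. Its mature sequences are shown with the seed, bases 2 to 8, in capitals.
mmu-miR-33-5p: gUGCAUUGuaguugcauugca
mmu-miR-33-3p: cAAUGUUUccacagugcaucac
The probe set of Mir33 was dim, from 3.66 to 4.29 over the 12 arrays, and was called in no comparison. Its diet difference was 0.01 in the wild type and 0.29 in the knockout (adjusted p = 0.2877).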

How the data were processed

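The deposited values are log2 expression values from RMA, run by the authors in Affymetrix Expression Console per the submitters' processing notes; versions and options are not given in the sources used here. Of 35557 probe sets, 21789 list 1 gene symbol, 1621 several and 12147 were not listed. For 999 genes with several probe sets the one with the highest mean was kept, which left 19938 genes; each regulator has 1. A further probe set lists 4 symbols, Srebf2 among them, and was left out of the main fit. It was 8.22 to 9.02 on the standard-diet arrays and 8.69 to 9.05 on the high-fat arrays, so it did not show the fall of Srebf2. Which of its genes it reports cannot be told.

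All 12 arrays entered 1 fit with a mean for each group in limma 3.58.1 (R 4.3.3), moderated by empirical Bayes along intensity, with 8 residual degrees of freedom (median total 14.5). Within-array differences were tested by exact permutation within strata. Adjustment was by Benjamini-Hochberg across 19938 genes. The text names the regulators, for each list up to 4 called genes, and the genes most like 4 of the regulators. The regulators and the lists were chosen with earlier results of these data known. The scripts were tested on simulated data. Promoter windows and miRNA sequences are from RefSeq, GRCm38.p6. Alternatives tried were array weights, empirical Bayes without trend, a dim-gene filter, all probe sets, quantile normalization, median centring, other thresholds, a replicate block, a variance for the offset between runs and the omission of each array. Figures were drawn with matplotlib 3.10.9. The number of arrays limits the precision.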

Additional observations from a re-analysis of the deposited data

How the results depend on the processing

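No called value changed direction under the alternatives run. A variance for an offset between the runs, with an SD of 0.214 from 1233 chemosensory genes, widens the SE of every diet difference. With it 0 of 7 regulators were called for diet in the wild type, 0 in the knockout and 0 in the average. SREBP2 targets called lower were then 0 and 1 in the wild type and knockout, and LXR targets called higher 2 and 0. LXR targets called in the wild type were 5 after median centring and 5 at an adjusted p under 0.01, where 8 SREBP2 targets were called in the knockout. Leaving out each array gave 0 to 1 regulators called for genotype on the high-fat diet, 5 to 10 LXR targets called in the wild type and 0.284 to 0.601 for Insig1 minus Insig2 by genotype. Leaving out replicate 1 of the standard-diet knockout together with replicate 3 of the high-fat wild type, chosen after seeing the data, left 1 regulator (Insig2) called for genotype on the high-fat diet. Whether the replicate numbers pair the arrays was not tested (correlation of same-numbered arrays -0.27 to 0.41, over 0.1 in 5 of 18 pairs, 7 of 12 arrays closest to their own number). With the replicate block, 3, 4 and 6 regulators were called for diet in the wild type, knockout and average.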
